A study of Mus musculus with 12 samples.

Results

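CC chemokines are small secreted proteins, and the 10 genes described here, Ccl2, Ccl3, Ccl4, Ccl5, Ccl6, Ccl7, Ccl8, Ccl9, Ccl11 and Ccl12, were taken by symbol from a table of 40760 mouse genes. They were chosen by values of these data, above all the rise of Ccl12 in wild-type (WT) mice given bleomycin (bleo), so the contrast of WT bleo with WT vehicle is given below as a description with no test. All 10 passed the filter on low counts, which kept 17418 genes, and their counts ran from 13 to 13574 per library.

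The libraries came from Cd140a+ cells, that is cells carrying the receptor Pdgfra on their surface, sorted by flow cytometry from the lungs of male mice. Bleo is a DNA-damaging drug used to induce lung fibrosis in mice, and Pear1 encodes a transmembrane receptor. The 4 groups, each with 3 libraries, were WT mice given vehicle, Pear1-/- mice given vehicle, WT mice given bleo and Pear1-/- mice given bleo. The Pear1-/- allele was a knockout-first cassette with a splice acceptor, lacZ and neo inserted in an intron, so the loss was not limited to Pdgfra+ cells, and gene-level counts also take in exons outside the insertion. The study's methods give a C57BL/6 background and a young adult age for mice in general, with exceptions where stated. The age set for these libraries, the bleo dose and day of collection behind these libraries, and whether each library was a separate mouse are not given in the sources used here, so p-values measure only the spread between these samples, which may be technical.

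CC chemokines bind G protein-coupled receptors on leukocytes and draw these cells along a gradient from blood into tissue. Ccl2, Ccl7 and Ccl12 act mainly through Ccr2 on inflammatory monocytes, and mouse Ccl8 acts through Ccr8. Ccl11, or eotaxin, acts through Ccr3 on eosinophils, Ccl3, Ccl4 and Ccl5 attract macrophages and T cells, and Ccl6 and Ccl9 signal through Ccr1. In the lung, macrophages are a main source of many of them, while fibroblasts are a known source of Ccl2, Ccl7 and Ccl11.

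The libraries held 6702948 to 10447101 counts, so that 3 counts stood for 0.287 to 0.448 CPM (counts scaled to a library total). WT vehicle replicate 2 stood apart from its group: the chi-square per degree of freedom over all genes was 21.2 and 21.8 against the other WT vehicle libraries, which differed from each other by 1.58, but 1.73 to 2.67 against the Pear1-/- vehicle libraries. In normalized counts (mean ± SD, n = 3), Pear1 itself stood at 547 ± 28.8 for WT vehicle against 519.7 ± 24.0 for Pear1-/- vehicle (log2 difference -0.08, edgeR adjusted p = 0.47), and it was higher in Pear1-/- bleo (357 ± 14.2) than in WT bleo (254 ± 14.0; log2 difference 0.48, edgeR adjusted p = 0.00012). The gene counts therefore did not separate the vehicle groups, and groups are named throughout as the libraries were labelled. The sorted cells carried Pdgfra in every library (1338 to 4802 normalized counts), but also the leukocyte marker Ptprc (3010.0 to 7727 normalized counts), the endothelial marker Pecam1 (584 to 1051) and the epithelial marker Epcam (129 to 231).

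All 10 genes lie on mouse chromosome 11 (GRCm38, GENCODE M21) in 2 clusters that are 1408978 bases apart. The first cluster holds, all on the plus strand, Ccl2 (chr11:82035571-82037453), Ccl7 (chr11:82045712-82047525), Ccl11 (chr11:82057823-82062955), Ccl12 (chr11:82101845-82103400) and Ccl8 (chr11:82115185-82116799). The second cluster holds Ccl5 (chr11:83525778-83530518), Ccl9 (chr11:83572919-83578636), Ccl6 (chr11:83587882-83593087) and Ccl3 (chr11:83647844-83649355) on the minus strand and Ccl4 (chr11:83662584-83664683) on the plus strand. The annotation places a gene on the other strand over Ccl2 (Gm17268, at most 3 counts in a library) and over Ccl6 (E230016K23Rik, 4 to 26 counts). The library kit does not mark strand, so reads of each pair could not be told apart, but those counts were small beside the lowest counts of Ccl2 (597) and Ccl6 (580).

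Promoter sequence, from 250 bases before to 50 bases after the start of the gene, was found in the RefSeq table (GRCm38.p6) for 5 of the 10 genes, namely Ccl3, Ccl6, Ccl8, Ccl9 and Ccl12. Ccl12 and Ccl8 are shown first because they are neighbours with the lowest vehicle levels of the family, and the capitals mark the letters TATAAAA, which begin 31 bases upstream of the Ccl12 start and 32 bases upstream of the Ccl8 start. Both sequences are on the plus strand, chr11:82101595-82101894 for Ccl12 and chr11:82114935-82115234 for Ccl8.
Ccl12: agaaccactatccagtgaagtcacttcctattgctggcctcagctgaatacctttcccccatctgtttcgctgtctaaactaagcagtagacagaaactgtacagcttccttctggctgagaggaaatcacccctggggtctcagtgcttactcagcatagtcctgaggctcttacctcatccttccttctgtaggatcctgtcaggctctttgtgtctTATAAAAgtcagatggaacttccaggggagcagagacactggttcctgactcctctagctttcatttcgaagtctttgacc
Ccl8: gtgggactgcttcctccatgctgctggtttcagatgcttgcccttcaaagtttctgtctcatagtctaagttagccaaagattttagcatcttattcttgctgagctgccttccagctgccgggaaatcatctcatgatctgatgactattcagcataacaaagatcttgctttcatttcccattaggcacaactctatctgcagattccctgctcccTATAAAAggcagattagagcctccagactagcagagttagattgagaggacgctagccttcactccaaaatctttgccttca
On either strand TATAAAA was also present in the Ccl9 window and in 5.48% of 32851 promoters of the same length, and it was looked for only after the sequences had been seen. Ccl6 and Ccl9, neighbours that share Ccr1, are shown because they held the longest run of bases shared by any pair of these 5 windows. Capitals mark that run of 13 bases, which begins 55 bases upstream of the Ccl6 start and 14 bases upstream of the Ccl9 start, and both sequences are on the minus strand, chr11:83593038-83593337 for Ccl6 and chr11:83578587-83578886 for Ccl9.
Ccl6: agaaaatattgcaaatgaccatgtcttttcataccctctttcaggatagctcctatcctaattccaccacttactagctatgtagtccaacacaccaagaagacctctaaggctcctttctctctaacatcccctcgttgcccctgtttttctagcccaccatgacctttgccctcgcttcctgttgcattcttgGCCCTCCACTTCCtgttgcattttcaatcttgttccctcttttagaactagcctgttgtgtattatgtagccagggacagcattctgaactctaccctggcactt
Ccl9: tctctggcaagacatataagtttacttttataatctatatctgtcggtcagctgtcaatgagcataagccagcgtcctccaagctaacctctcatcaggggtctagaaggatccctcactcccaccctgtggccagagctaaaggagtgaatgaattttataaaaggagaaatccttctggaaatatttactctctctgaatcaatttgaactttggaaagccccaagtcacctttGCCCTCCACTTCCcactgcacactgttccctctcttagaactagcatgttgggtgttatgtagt
A further 4 motifs were searched on both strands. The NF-kappaB form was found in the Ccl9 window alone, 35 bases upstream of its start, and in 50.8% of all promoters. TGANTCA, the AP-1 form, was also found only in the Ccl9 window, 53 bases upstream of its start, against 7.81% of all promoters. Neither TTCNNNGAA (8.3% of all promoters) nor CCAAT (37.4%) was in any of the 5 windows.

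Levels of different genes were compared per length, as CPM per kb of exonic bases. Ccl4 had the highest level in each of the 4 groups, with 1013 ± 240.3 CPM per kb (SD, n = 3) for WT and 705 ± 2.19 for Pear1-/- libraries given vehicle, and 2177 ± 51.6 for WT and 573 ± 10.2 for Pear1-/- libraries given bleo. Ccl3 came next in each group, with 432 ± 51.7, 374 ± 7.50, 1132 ± 26.7 and 280.5 ± 18.4 CPM per kb in the same order. The ranges of these leading genes did not overlap each other, nor the range of the gene that followed, in any group. In WT vehicle, Ccl5 followed at 116 CPM per kb, Ccl7, Ccl11 and Ccl2 stood between 75.7 and 83.9 without a clear order, and Ccl6 (52.9), Ccl9 (25.9), Ccl12 (8.85) and Ccl8 (6.54) were lowest, the last pair with overlapping ranges. The range of Ccl11 (53.8 to 118) also overlapped those of Ccl5 (108 to 125) and Ccl6 (48.2 to 62.0). The order changed after bleo. In WT bleo Ccl6 followed Ccl3 (339 CPM per kb), then came Ccl12 (297) with a range overlapping that of Ccl7 (288), and Ccl11 last (11.2). In Pear1-/- bleo Ccl6 (191) again followed Ccl3, Ccl2 (182) and Ccl7 (165) followed with overlapping ranges, and Ccl12 stood below Ccl9 (109) at 87.6 CPM per kb.

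**Figure D1:**
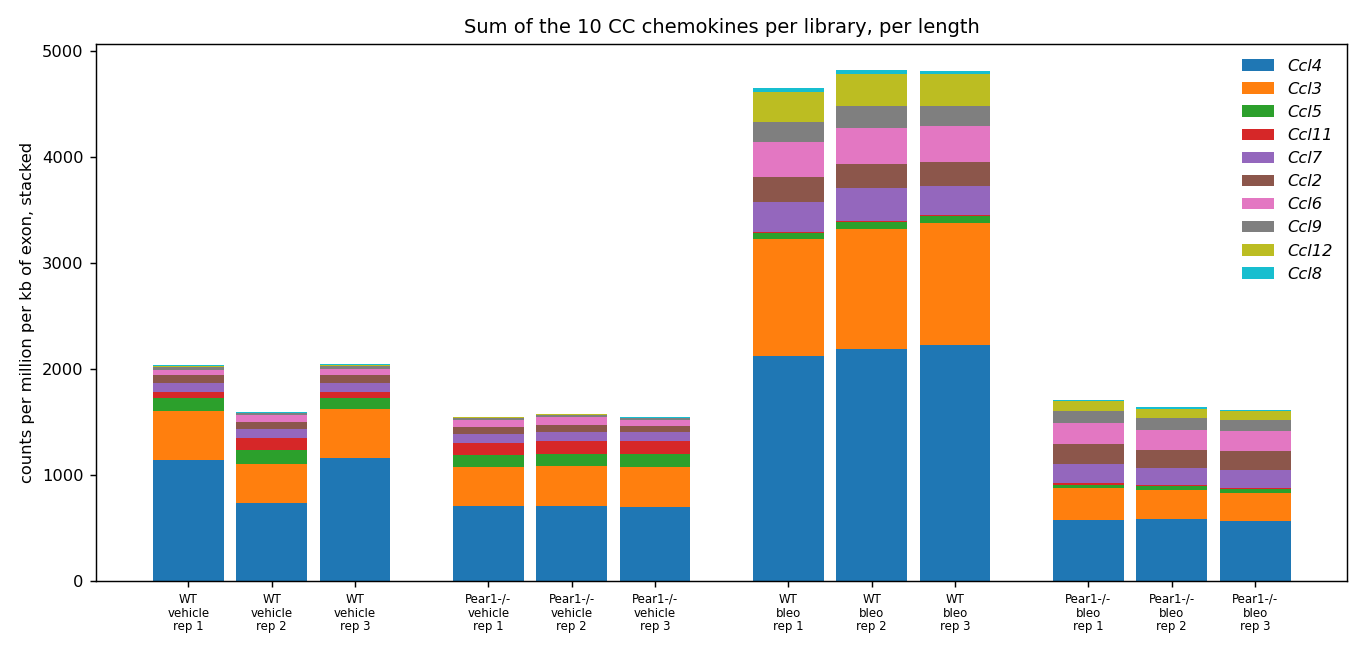
Level of the 10 CC chemokines in each of the 12 libraries, stacked, in CPM per kb of exonic bases on a linear axis that starts at 0. The 3 WT bleo bars reach 4652 to 4823, while the 3 Pear1-/- bleo bars end at 1613 to 1705.

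Summed over the 10 genes, the level with vehicle was 1591 to 2047 CPM per kb for WT and 1546 to 1578 for Pear1-/-, and with bleo 4652 to 4823 for WT and 1613 to 1705 for Pear1-/-. The sum in Pear1-/- bleo thus lay just above that of Pear1-/- vehicle, while its makeup differed. Ccl4 made up 45.3% ± 0.447 (SD, n = 3) of the sum in Pear1-/- vehicle and 34.7% ± 1.03 in Pear1-/- bleo, and Ccl3 made up 24.0% ± 0.329 and 17.0% ± 0.635. The share of Ccl2 was 4.16% ± 0.140 and 11% ± 0.343, that of Ccl6 4.06% ± 0.519 and 11.6% ± 0.133, and that of Ccl12 0.329% ± 0.129 and 5.30% ± 0.427. In WT libraries Ccl3 kept close to its share (22.9% ± 0.490 in vehicle, 23.8% ± 0.213 in bleo), and Ccl12 moved from 0.460% ± 0.0982 to 6.24% ± 0.148.

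**Figure D2:**
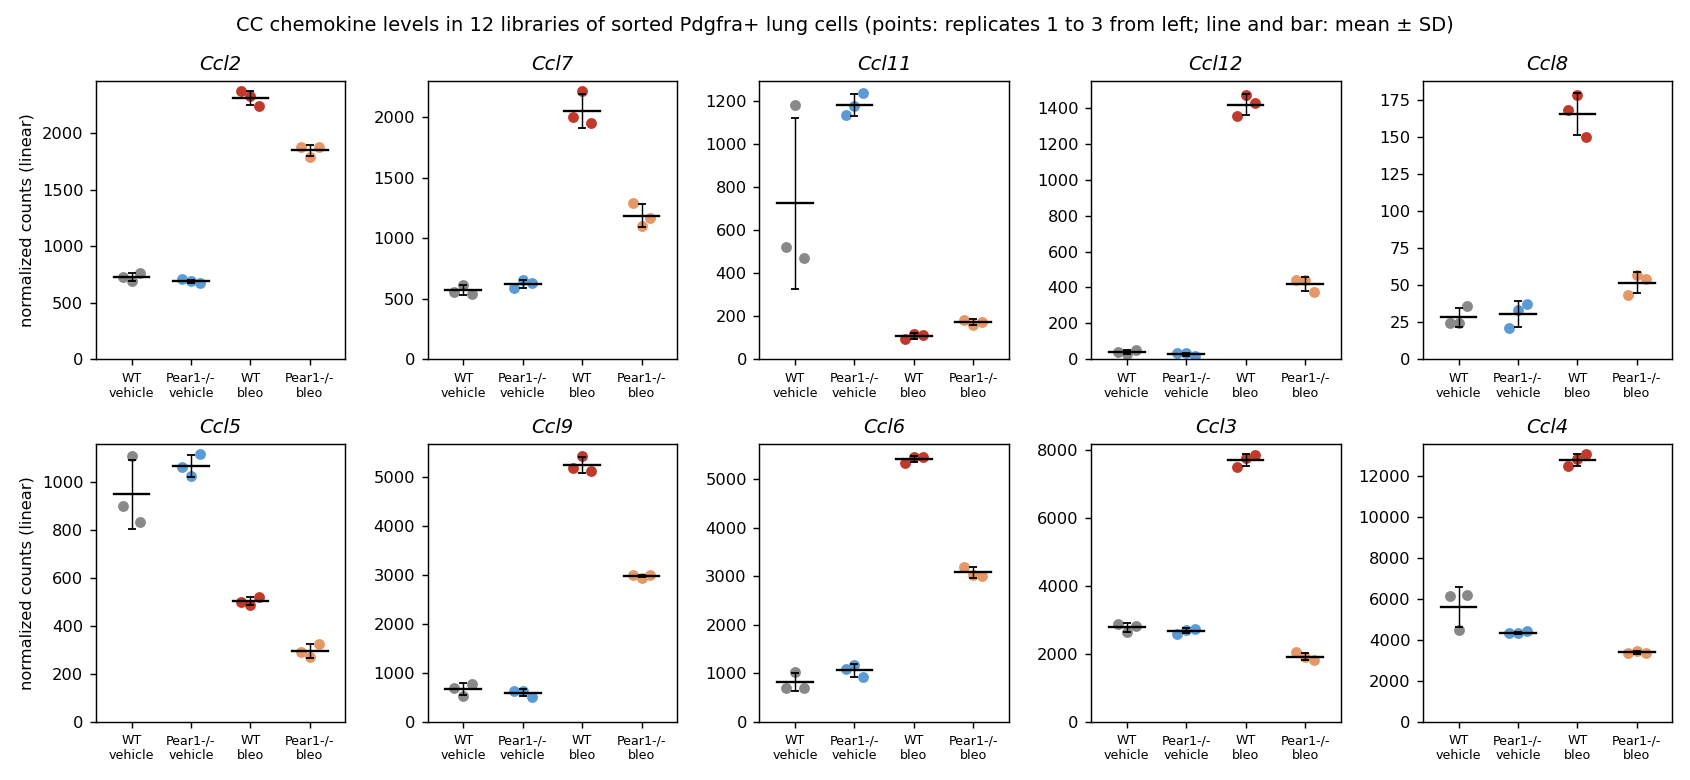
Normalized counts of each gene on a linear axis that starts at 0, 1 panel a gene, with 1 point for each of the 3 libraries of a group and a line and bar for their mean ± SD. Ccl3 and Ccl4 are high in WT bleo and lowest in Pear1-/- bleo, Ccl12 is near 0 in both vehicle groups, and Ccl11 is low in both bleo groups, with WT vehicle replicate 2 far above the other WT vehicle libraries.

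Among the monocyte chemoattractants, Ccl12 stood at 41.2, 28.4 and 49.2 normalized counts in the WT vehicle libraries and at 31.2, 31.5 and 14.2 in the Pear1-/- vehicle libraries. With bleo it stood at 1357, 1475 and 1429 in WT and at 444, 444 and 375 in Pear1-/-. Every bleo library was above every vehicle library, and the Pear1-/- bleo libraries lay between the vehicle and the WT bleo libraries. The log2 difference of WT bleo from WT vehicle was 5.18 (SE 0.17), a 36.4-fold higher level and the highest of the 10 genes. Between the Pear1-/- groups Ccl12 rose by 4.01 (SE 0.18, edgeR adjusted p = 8.63e-11), and Pear1-/- bleo was below WT bleo by a log2 difference of -1.77 (SE 0.13, edgeR adjusted p = 2.98e-08). The WT bleo libraries also entered the choice of the genes. P-values of Pear1-/- bleo against WT bleo, here and below, are therefore not independent of that choice. In bulk RNA, as here, fewer cells that express a gene and less of its RNA per cell cannot be told apart.

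Ccl2, the main Ccr2 ligand, had 724, 691 and 761 normalized counts in WT vehicle and 705, 689 and 676 in Pear1-/- vehicle. With bleo it had 2370.5, 2327 and 2245 in WT and 1881, 1792 and 1875 in Pear1-/-. The vehicle groups overlapped, and the bleo groups did not. The log2 difference was 1.69 (SE 0.067) between the WT groups and 1.43 (SE 0.067, edgeR adjusted p = 1.02e-10) between the Pear1-/- groups. Ccl2 was lower in Pear1-/- bleo than in WT bleo by the smallest margin of the 9 genes that fell in that contrast, a log2 difference of -0.34 (SE 0.064, edgeR adjusted p = 0.000533).

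Ccl7, a further monocyte chemoattractant, had 558, 614 and 536 normalized counts in WT vehicle and 586, 654 and 628 in Pear1-/- vehicle. In WT bleo the values were 1998, 2214 and 1949, and in Pear1-/- bleo 1288, 1101 and 1170. Again only the vehicle groups overlapped. The log2 difference with bleo was 1.86 (SE 0.085) in WT and 0.93 (SE 0.084, edgeR adjusted p = 1.78e-07) in Pear1-/-, and Pear1-/- bleo was below WT bleo by a log2 difference of -0.80 (SE 0.082, edgeR adjusted p = 1.23e-06).

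Ccl8, the Ccr8 ligand, had 24.3, 24.4 and 35.5 normalized counts in WT vehicle and 20.8, 33.4 and 37.1 in Pear1-/- vehicle. In WT bleo it had 168, 178 and 150, and in Pear1-/- bleo 43.5, 56.7 and 54.3. The Pear1-/- bleo libraries were above all 6 vehicle libraries but less than 60 counts high, far from the WT bleo libraries. The log2 difference with bleo was 2.57 (SE 0.20) in WT and 0.77 (SE 0.22, edgeR adjusted p = 0.00609) in Pear1-/-, and the bleo groups differed by -1.69 (SE 0.18, edgeR adjusted p = 1.68e-06).

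Ccl11, or eotaxin, went the other way, although it lies between Ccl7 and Ccl12. It had 523, 1182 and 469 normalized counts in WT vehicle and 1135, 1176 and 1236 in Pear1-/- vehicle, so that WT vehicle replicate 2 sat within the Pear1-/- vehicle range. With bleo it had 91.8, 118 and 114 in WT and 183, 158 and 173 in Pear1-/-. Each bleo library was below each vehicle library, and the 2 bleo groups did not overlap. Between the Pear1-/- groups Ccl11 fell by 2.78 on the log2 scale (SE 0.26, edgeR adjusted p = 2.76e-07). The WT difference was -2.74 (SE 0.28), or -2.12 (SE 0.10) without WT vehicle replicate 2. The higher level in Pear1-/- bleo than in WT bleo, a log2 difference of 0.65 (SE 0.30), missed the threshold (edgeR adjusted p = 0.0832), but passed it without WT vehicle replicate 2 (0.65, edgeR adjusted p = 2.23e-06), a library of neither group, and without WT vehicle replicate 3 (0.66, edgeR adjusted p = 0.0404).

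Ccl3 and Ccl4, inflammatory attractants of macrophages and T cells, were the members whose response to bleo had opposite signs in the 2 genotypes. Ccl3 had 2892, 2639 and 2836 normalized counts in WT vehicle and 2595, 2714 and 2725 in Pear1-/- vehicle. With bleo it had 7520.1, 7764 and 7864 in WT but 2044, 1914 and 1811 in Pear1-/-. All WT bleo libraries were above, and all Pear1-/- bleo libraries below, every vehicle library. The log2 difference was 1.48 (SE 0.069) in WT, and between the Pear1-/- groups Ccl3 fell by 0.47 on the log2 scale (SE 0.068, edgeR adjusted p = 2.39e-05). Pear1-/- bleo was 4.05-fold below WT bleo, a log2 difference of -2.02 (SE 0.070, edgeR adjusted p = 2.91e-11).

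Ccl4 had 6130.3, 4489 and 6168 normalized counts in WT vehicle, replicate 2 being lowest, and 4315, 4331 and 4409 in Pear1-/- vehicle. With bleo it had 12467, 12848 and 13047 in WT and 3366, 3459.8 and 3339 in Pear1-/-. The group means stood in the same order as those of Ccl3, with no overlap between any pair of groups. The log2 difference was 1.20 (SE 0.096) in WT, and Ccl4 fell by 0.36 between the Pear1-/- groups (SE 0.095, edgeR adjusted p = 0.00432). The bleo groups differed by -1.93 (SE 0.098, edgeR adjusted p = 8.72e-10), or 3.81-fold.

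Ccl5, which is made mostly by T and NK cells, was lower after bleo in both genotypes. It had 899, 1108 and 833 normalized counts in WT vehicle and 1059, 1022 and 1115 in Pear1-/- vehicle. In WT bleo it had 498, 488 and 521, and in Pear1-/- bleo 291, 269 and 324. The vehicle groups overlapped and the bleo groups did not. The WT difference was -0.90 (SE 0.097), Ccl5 fell by 1.85 on the log2 scale between the Pear1-/- groups (SE 0.10, edgeR adjusted p = 5.89e-10), and the bleo groups differed by -0.78 (SE 0.10, edgeR adjusted p = 1.44e-05).

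Of the Ccr1 ligands, Ccl6 had 703, 1029 and 703 normalized counts in WT vehicle and 1097, 1172 and 916 in Pear1-/- vehicle. With bleo it had 5342, 5464 and 5454 in WT and 3196, 3029 and 3005 in Pear1-/-. Ccl6 of WT vehicle replicate 2 again sat within the Pear1-/- vehicle range. The log2 difference was 2.75 (SE 0.13) in WT and 1.54 (SE 0.12, edgeR adjusted p = 5.6e-08) in Pear1-/-, and the bleo groups differed by -0.83 (SE 0.12, edgeR adjusted p = 4.85e-05).

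Ccl9 had 680, 529 and 768 normalized counts in WT vehicle and 630, 633 and 504 in Pear1-/- vehicle. In WT bleo it had 5177, 5423 and 5121, and in Pear1-/- bleo 2983, 2940 and 2987. The vehicle groups overlapped, and both bleo groups stood far above them. The log2 difference was 3.0 (SE 0.12) in WT and 2.34 (SE 0.12, edgeR adjusted p = 2.72e-10) in Pear1-/-, each second only to Ccl12 among the 10 genes, and the bleo groups differed by -0.83 (SE 0.11, edgeR adjusted p = 2.12e-05).

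**Figure D3:**
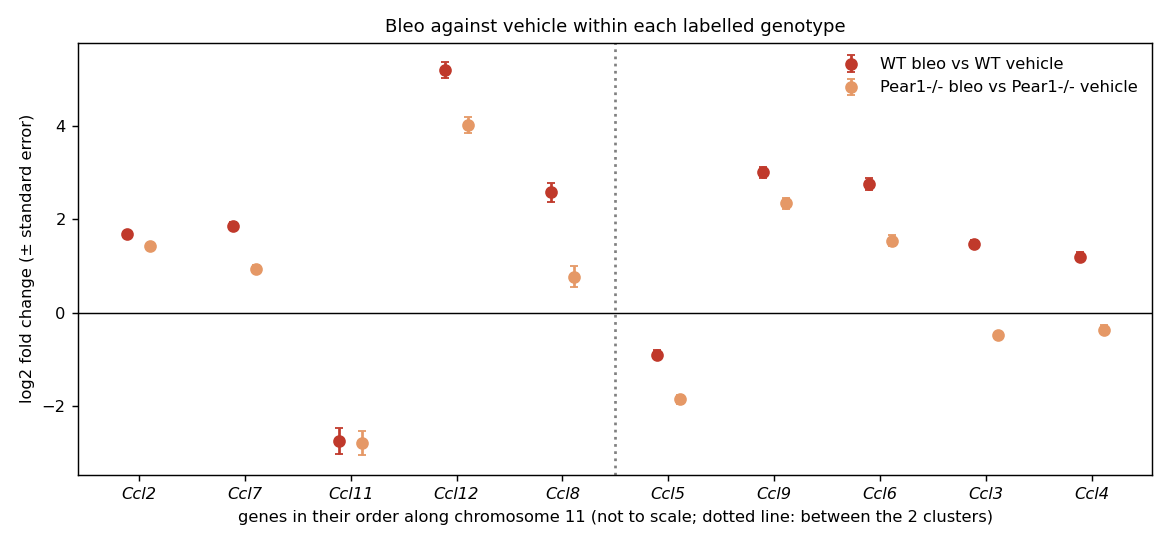
Log2 fold change of bleo against vehicle for the 10 genes in their order along chromosome 11, within WT (dark points) and Pear1-/- (light points), with bars for the standard error, from 3 libraries a group. Ccl12 stands highest in both (5.18 and 4.01), Ccl3 and Ccl4 are above 0 in WT and below 0 in Pear1-/-, and Ccl11 is below 0 in both.

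Across the family, WT bleo was above WT vehicle with no overlap for 8 genes and below it for 2, against 32.0% and 36.7% of all genes tested. Past 2-fold, 8 genes were higher and 1, Ccl11, was lower (10.7% and 24.3% of all genes). Since the members were chosen with this contrast known, nothing is read from these counts. Their median log2 difference was 1.77, that of all genes -0.07.

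Between the Pear1-/- groups, 6 of the 10 genes rose (Ccl2, Ccl6, Ccl7, Ccl8, Ccl9 and Ccl12) and 4 fell (Ccl3, Ccl4, Ccl5 and Ccl11) at an adjusted p under 0.05, against 28.9% and 33.4% of all genes tested. Past 2-fold as well, 4 rose and 2 fell, against 8.38% and 19.4% of all genes. The median log2 difference of the 10 genes was 0.85, and that of all genes -0.05. With 62.3% of all genes called in either direction, the number of members called says little by itself.

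Side by side, the log2 response to bleo was lower in Pear1-/- than in WT for 9 of the 10 genes under every alternative run, with the 2 responses sharing no library. The difference of the responses was -1.95 (SE 0.096) for Ccl3, -1.80 (SE 0.30) for Ccl8 and -1.56 (SE 0.13) for Ccl4. It was -1.21 (SE 0.17) for Ccl6, -1.18 (SE 0.29) for Ccl12, -0.95 (SE 0.14) for Ccl5 and -0.93 (SE 0.12) for Ccl7. The smallest were those of Ccl9 (-0.67, SE 0.16), Ccl2 (-0.26, SE 0.093, and -0.10 with total-count scaling) and Ccl11 (-0.04, SE 0.38), the last far within its error and without a stable sign (-0.67 without WT vehicle replicate 2, 0.14 and 0.19 without replicate 1 or 3). The median was -1.06, against -0.00 for all genes, and no test is given because these values contain the contrast that chose the members.

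**Figure D4:**
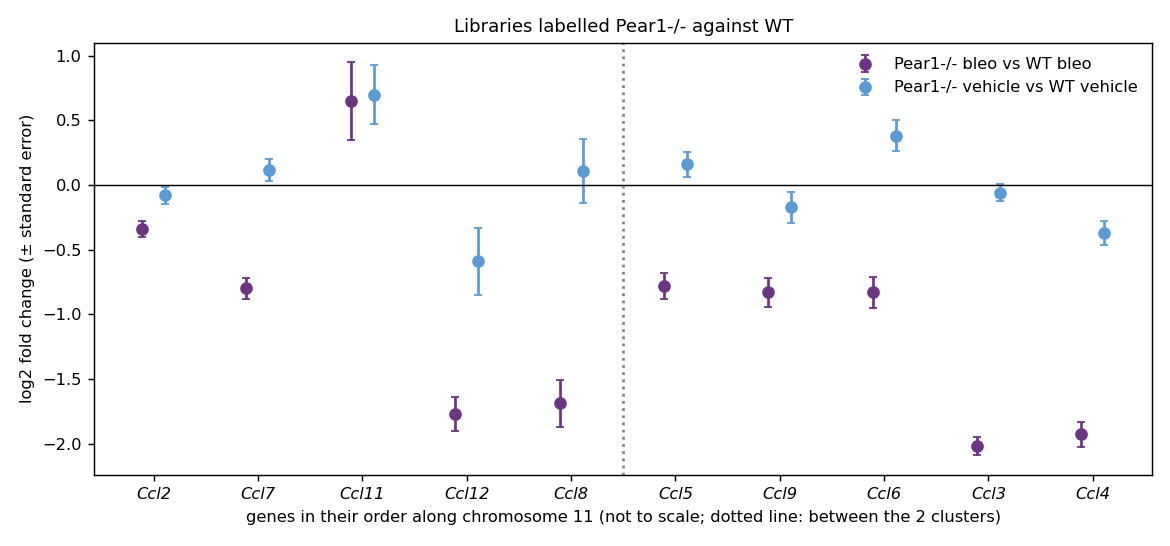
Log2 fold change of Pear1-/- against WT for the 10 genes in their order along chromosome 11, with bleo (purple) and with vehicle (blue), with bars for the standard error, from 3 libraries a group. With bleo 9 genes lie below 0, from -0.34 for Ccl2 to -2.02 for Ccl3, while with vehicle the points lie between -0.59 and 0.70.

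Between the bleo groups, 9 of the 10 genes were lower in Pear1-/- and none was higher at an adjusted p under 0.05, against 23.9% and 22.1% of all genes tested. Past 2-fold as well, 4 were lower (Ccl3, Ccl4, Ccl8 and Ccl12), against 8.76% of all genes. Without overlap of the groups, 9 were lower and 1, Ccl11, was higher (31.6% and 31.3% of all genes). The median log2 difference was -0.83, that of all genes -0.01. This contrast shares the WT bleo libraries with the one that chose the members, so it is not independent of that choice.

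Between the vehicle groups, Ccl4 alone was called, with a log2 difference of -0.37 (SE 0.095, edgeR adjusted p = 0.0444), against 4.50% of all genes tested in either direction. The other 9 genes had log2 differences between -0.59 (Ccl12, SE 0.26) and 0.70 (Ccl11, SE 0.23). This result turned on single libraries. Without WT vehicle replicate 2, the library that resembled the Pear1-/- vehicle group, 7 of the 10 genes were called, along with 11258 of all 20405 genes then tested, so that the rise in calls was not particular to the chemokines: Ccl11 (1.32, edgeR adjusted p = 1.29e-18), Ccl6 (0.66, edgeR adjusted p = 4.11e-10), Ccl5 (0.37, edgeR adjusted p = 2.92e-05) and Ccl7 (0.26, edgeR adjusted p = 0.00651) were higher in Pear1-/-, and Ccl4 (-0.43, edgeR adjusted p = 7.29e-10), Ccl9 (-0.23, edgeR adjusted p = 0.00936) and Ccl12 (-0.72, edgeR adjusted p = 0.0129) were lower. Without any 1 of the other 11 libraries, no member was called, nor was any other gene in edgeR's fit (2955 to 6917 genes at an unadjusted p under 0.05), while the Ccl4 difference stayed between -0.33 and -0.29.

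Markers of other cells moved with these groups. Summed over the 19 of 20 myeloid markers found in the table, the level with vehicle was 3068 to 4396 CPM for WT and 4276 to 4619.7 for Pear1-/-, and with bleo 13832 to 14035 for WT and 6440.2 to 6572 for Pear1-/-. No myeloid marker was at 0 in any library, and the lowest was Ly6g, with 3, 3 and 3 counts in WT bleo and 11, 3 and 6 in Pear1-/- bleo. The median log2 difference of these 19 genes was 1.60 between the WT groups, 0.58 between the Pear1-/- groups and -0.81 between the bleo groups, beside 1.77, 0.85 and -0.83 for the 10 chemokines. The list did not move one way. Between the Pear1-/- groups 10 of the 19 rose and 7 fell in edgeR's test, against 28.9% and 33.4% of all genes tested. Between the WT groups 11 were higher past 2-fold and 4 lower (Ly6g -3.34, S100a8 -3.12, S100a9 -2.68 and Ly6c2 -1.04), against 10.7% and 24.3% of all genes. Between the bleo groups 13 of the 19 were lower in Pear1-/- and 1, the neutrophil marker S100a8, was higher (0.90, edgeR adjusted p = 0.0331), against 23.9% and 22.1% of all genes tested. The macrophage markers Adgre1 (-1.69, edgeR adjusted p = 1.22e-10), Csf1r (-1.40, edgeR adjusted p = 1.96e-10) and Cd68 (-1.23, edgeR adjusted p = 1e-09) and the leukocyte marker Ptprc (-1.19, edgeR adjusted p = 3.71e-08) were lower in Pear1-/-, and Pdgfra was higher (0.80, edgeR adjusted p = 1.47e-07). The part of these cells in the chemokine results was not tested.

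The other lists moved too. The 8 fibroblast markers summed with vehicle to 14099 to 14413 CPM for WT and 14104 to 14356 for Pear1-/-, and with bleo to 8947 to 9017 for WT and 24626 to 25298 for Pear1-/-. The sum does not stand for the list. Between the Pear1-/- groups the collagen genes Col1a1 (2.18, edgeR adjusted p = 1.17e-13) and Col1a2 (1.53, edgeR adjusted p = 1.19e-12) and the receptor Pdgfrb (0.48, edgeR adjusted p = 9.85e-05) rose. The other 5 markers, Pdgfra among them (-0.80, edgeR adjusted p = 7.35e-08), fell, and the median was -1.06. Of all genes tested, 28.9% rose and 33.4% fell in that contrast. The 12 lymphoid markers summed to 657 to 969.7, 962 to 1003, 761 to 769 and 548 to 567 CPM in the same order. Their median log2 difference was -0.73 between the WT groups and -1.49 between the Pear1-/- groups, where 11 of the 12 fell, against 33.4% of all genes tested. The 6 epithelial markers summed to 4679 to 5996, 5636 to 6447, 1589 to 1619 and 706 to 713. This sum does not stand for its list either. Between the Pear1-/- groups 5 of the 6 fell, but the adhesion gene Cdh1 rose (1.26, edgeR adjusted p = 2.49e-07), against 33.4% and 28.9% of all genes tested. Cdh1 (0.90) and Epcam (0.36) were higher in WT bleo than in WT vehicle. Between the bleo groups 4 of the 6 were lower in Pear1-/-, 2 of them past 2-fold, and Cdh1 was higher (0.40, edgeR adjusted p = 0.00801). Of all genes tested, 23.9% were lower, 8.76% past 2-fold as well, and 22.1% were higher. The 5 endothelial markers summed to 330.4 to 363, 349 to 366, 164 to 178 and 178 to 189.6, and the 4 mast cell markers to 12.2 to 27.9, 8.88 to 10.7, 13.7 to 16.2 and 8.88 to 9.23. At 0 in these lists was the mast cell marker Mcpt4 alone, in 1 Pear1-/- vehicle library (0, 1 and 4 counts in that group), and their part in the results was not tested.

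Set against the summed myeloid markers of the same library, the 10 genes did not move alike. Ccl12 was 0.144% of that sum on average in WT vehicle and 1.15% in WT bleo, and 0.0633% and 0.725% in the Pear1-/- groups, so that its ratio was higher after bleo by 2.99 and 3.52 on the log2 scale. Ccl9 (0.84 in WT, 1.83 in Pear1-/-) and Ccl6 (0.69 and 1.03) also had higher ratios to this sum after bleo, but the sum does not stand for its list, and the sign depends on the divisor. The macrophage markers Csf1r (3.08 in WT, 1.74 in Pear1-/-), Mrc1 (3.30 and 2.02) and Fcgr3 (3.35 and 1.86) had larger log2 differences than Ccl6 in both genotypes and than Ccl9 in WT. Other markers of the list did not. Lyz2 (2.69 and 1.31) had smaller differences than Ccl6 in both genotypes. Adgre1 (3.19 and 1.49) and Itgax (2.88 and 1.48) had larger ones than Ccl6 in WT only, and Cd68 (2.90 in WT) was below Ccl9 there. For Ccl8 (0.42 and 0.27) the vehicle and bleo ranges of the ratio overlapped in both genotypes. Ccl2 (0.92) and Ccl7 (0.43) had higher ratios in Pear1-/- bleo than in Pear1-/- vehicle, while their ranges overlapped between the WT groups (-0.45 and -0.24). Ccl5 (-2.99 and -2.35) and Ccl11 (-4.71 and -3.28) had lower ratios in both genotypes. Ccl3 (-0.65 and -0.98) and Ccl4 (-0.96 and -0.86) also had lower ratios after bleo in both, whereas their levels had opposite signs in the genotypes. Between the bleo groups the log2 ratio was lower in Pear1-/- for Ccl3 (-0.91), Ccl4 (-0.82), Ccl12 (-0.66) and Ccl8 (-0.59), and higher for Ccl11 (1.76), Ccl2 (0.77), Ccl5 (0.32), Ccl7 (0.30), Ccl6 (0.27) and Ccl9 (0.27). All these ratios depend on the divisor, and in the bleo libraries its largest part was Lyz2 (33601 to 75754 normalized counts). Between the bleo groups the single marker Adgre1 differed by -1.69, beside -1.69 for Ccl8 and -1.77 for Ccl12. These ratios are descriptions with no test, since the markers do not show which cells made a chemokine.

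Among the receptors, 13 of 14 passed the filter; the Ccl11 receptor Ccr3 did not, with at most 17 counts in a library. Between the Pear1-/- groups 8 of the 13 rose and 3 fell, against 28.9% and 33.4% of all genes tested. Ccr2, the receptor for Ccl2, Ccl7 and Ccl12, had 294, 330.3 and 287 normalized counts in Pear1-/- vehicle and 1648, 1601 and 1665 in Pear1-/- bleo, and rose by 2.43 (edgeR adjusted p = 5.01e-12). Ccr1, which binds Ccl6 and Ccl9, rose by 0.74 (edgeR adjusted p = 0.00137). Ccr8, the Ccl8 receptor, rose by 0.65 (edgeR adjusted p = 0.016). The receptors that fell were Ccr9 (-1.58, edgeR adjusted p = 0.000782), Ccr10 (-0.85, edgeR adjusted p = 3.9e-05) and Ccr7 (-0.55, edgeR adjusted p = 5.81e-05).

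Between the bleo groups 4 of the 13 receptors were lower in Pear1-/- and 3 were higher, shares near the 23.9% and 22.1% of all genes tested. Ccr2 had 4503, 4683 and 4667 normalized counts in WT bleo, well above Pear1-/- bleo (log2 difference -1.51, edgeR adjusted p = 1.42e-09). Ccrl2, an atypical receptor that binds chemerin, was also lower (-1.0, edgeR adjusted p = 4.09e-09), as was Ccr7 (-0.42, edgeR adjusted p = 0.000951). Ccr1 had a difference of -0.06 (SE 0.17), so the receptor of Ccl6 and Ccl9 was not shown to differ where both ligands were lower. Ccr10, the receptor for Ccl27 and Ccl28, was higher, with 21.1, 12.2 and 14.2 normalized counts in WT bleo and 136, 137 and 148 in Pear1-/- bleo (3.11, edgeR adjusted p = 6.18e-09). The scavenging receptors Ackr2 (0.76, edgeR adjusted p = 0.000243) and Ackr4 (1.66, edgeR adjusted p = 0.0155) were higher as well. Between the vehicle groups Ccr2 was lower in Pear1-/- (-0.38, edgeR adjusted p = 0.0391), and the call did not hold without any 1 of the 11 libraries other than WT vehicle replicate 2.

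Of the 14 other CC chemokines in the list, 8 passed the filter, and between the Pear1-/- groups 4 rose and 4 fell, against 28.9% and 33.4% of all genes tested. Ccl17, a ligand of Ccr4, had 157, 169 and 189.9 normalized counts in Pear1-/- vehicle and 1036, 1041 and 1039.9 in Pear1-/- bleo, and rose by 2.60 (edgeR adjusted p = 7.18e-13). Ccl22, which shares that receptor, rose by 0.78 (edgeR adjusted p = 1.9e-07), and Ccl25 by 1.35 (edgeR adjusted p = 0.00233). Ccl21a (-1.16, edgeR adjusted p = 0.000793) and Ccl27a (-1.0, edgeR adjusted p = 0.000916) fell, both being uncertain because near-identical copies share their reads. Ccl20 also fell (edgeR adjusted p = 8.69e-06), from 29, 23 and 22 counts in Pear1-/- vehicle to 2, 2 and 1 in Pear1-/- bleo, as did Ccl28 (edgeR adjusted p = 0.0109), from 6, 12 and 6 counts to 0, 0 and 2. No fold is given for either, since all Pear1-/- bleo libraries were at 3 counts or fewer. Between the bleo groups 3 of the 8 were lower in Pear1-/- and none was higher, against 23.9% and 22.1% of all genes tested. Ccl17 (-0.29, edgeR adjusted p = 0.00216) and Ccl22 (-0.33, edgeR adjusted p = 0.00118) were lower by small margins, and Ccl20 was lower (edgeR adjusted p = 0.00376) with 9, 11 and 5 counts in WT bleo.

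Ccl24, like Ccl11 a ligand of Ccr3, was near 0 in 4 libraries. It had 47, 1 and 41 counts in WT vehicle and 1, 0 and 0 in Pear1-/- vehicle, so that WT vehicle replicate 2 resembled the Pear1-/- vehicle libraries here as well. With bleo it had 38, 43 and 28 counts in WT and 41, 46 and 42 in Pear1-/-. Ccl24 passed the test as higher in Pear1-/- bleo than in Pear1-/- vehicle (edgeR adjusted p = 0.000243) and as lower with the Pear1-/- label than without it under vehicle (edgeR adjusted p = 0.0388), and no fold is given since 1 group was at or under 3 counts. Ccl25 was likewise lower in Pear1-/- vehicle than in its WT counterpart (-1.62, edgeR adjusted p = 0.0388), and both vehicle calls were lost without any 1 of the 11 libraries other than WT vehicle replicate 2.

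As a description over the 12 libraries, which form 4 groups, Pearson's r of log2 CPM between members was 0.98 for Ccl3 and Ccl4 and 0.99 or more for Ccl2, Ccl9 and Ccl12 with each other. Ccl3 and Ccl12 had an r of 0.57, and Ccl11 an r of -0.97 with Ccl12 and with Ccl2. Of 10445 genes whose log2 CPM averaged 3 or more, those with a pattern most like a member were Dab2 for both Ccl9 (r = 0.9988) and Ccl12 (r = 0.9968), Clec4n for Ccl2 (r = 0.9980), Cxcl10 for Ccl3 (r = 0.9891) and Cadm1 for Ccl4 (r = 0.9890). They were Scara5 for Ccl11 (r = 0.9987), Actr3 for Ccl6 (r = 0.9978), F11r for Ccl7 (r = 0.9977), Slco2b1 for Ccl5 (r = 0.9964) and Uhmk1 for Ccl8 (r = 0.9888). Since the bleo groups stand far from each other and from the vehicle libraries, such values mainly restate the differences between these sets of libraries.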

How the data were processed

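RNA-seq was performed on sorted Pdgfra+ lung cells, 12 libraries in 4 groups of 3, named from their titles. Per the labels and the study's methods, the authors made full-length cDNA from low-input RNA, aligned reads with HISAT2 2.1 to GRCm38 and deposited raw read counts per gene. The counting tool is not given in the sources used here. The authors also deposited a normalized signal, the counts divided by DESeq2 size factors; these values are the normalized counts printed here.

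Counts were tested with edgeR 4.0.16 (R 4.3.3), glmQLFit and glmQLFTest, TMM scaling, filterByExpr by group, 1 mean per group over all 12 libraries, with p-values adjusted after Benjamini and Hochberg across 17418 genes that passed, of 40760. Called means an adjusted p under 0.05. The design was also run on simulated counts with few changed genes and no outlying library. That run cannot vouch for the calls made here. CPM per kb used exonic bases from GENCODE M21. Alternatives were DESeq2 1.42.0 (Wald test and size factors), limma 3.58.1 on log2(normalized value + 1), total counts, other filters, the compared groups alone, a replicate block and leaving out each library. The floor of 3 counts covers counting error only.

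The members and lists were chosen with earlier results of these data known. Named were all 10 members, some but not all genes of the other lists past the test or defining a cell type, and for each member the gene with the highest Pearson r. The myeloid marker Siglec5 was not matched. No columns of other samples and no fold changes or p-values of the authors were used. The values of 1 gene of the receptor list are not reported here, though the list's counts include it.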

Additional observations from a re-analysis of the deposited data

Results flagged for a closer look

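The response of Ccl3 to bleo had opposite signs in the libraries of the 2 labelled genotypes, every WT bleo library lying above every WT vehicle library and every Pear1-/- bleo library below every Pear1-/- vehicle library, with a difference of the log2 responses of -1.95. Ccl4, its neighbour on the chromosome, showed the same, with a difference of -1.56. Neither difference was tested, because both contain the contrast that was known when the genes were chosen.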

How the results depend on the processing

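All 10 members stayed called between the Pear1-/- groups, and 4 were called past 2-fold between the bleo groups under each of the 20 alternatives. Between the bleo groups 9 or 10 were called, Ccl11 being the tenth under total-count scaling (adjusted p = 0.0493), no filter (6.05e-06), limma (0.0336), the compared groups alone (2.25e-07) and without WT vehicle replicate 2 (2.23e-06) or 3 (0.0404). The vehicle contrast was not stable: 1 member was called in edgeR's fit, 3 with no filter, 0 with the compared groups alone, 0 with the replicate block, and 0 to 7 when 1 library was left out. Of the other CC chemokines, 2 were called there, 0 with the compared groups alone and 0 to 6 when 1 library was left out. Of the receptors, 2 were called, 4 with no filter, 4 with limma, 0 with the compared groups alone and 0 to 9 when 1 library was left out. These counts moved with those over all genes, 784 of 17418 in edgeR's fit (5508 at an unadjusted p under 0.05), 5638 of 40760 with no filter, 1099 with limma, 703 with the replicate block, 0 of 16422 with the compared groups alone, 11258 of 20405 without WT vehicle replicate 2 and 0 without any other library. Signs in it turned for Ccl2 with no filter (0.02), Ccl3 with no filter (0.04) and without Pear1-/- vehicle replicate 1 (0.01, range -0.05 to 0.01 when 1 library was left out), Ccl7 with total counts (-0.02), and Ccl8 with total counts (-0.04) and without Pear1-/- vehicle replicate 3 (-0.01, range -0.01 to 0.37), all within their errors; the cause was not tested. Total-count scaling moved the median log2 difference of all genes to -0.17 between the WT groups and -0.15 between the vehicle groups. Same-numbered libraries did not deviate together (r from -0.29 to 0.18 over 18 pairs, 1 above 0.1). This does not exclude that the numbers pair the samples. The libraries of each bleo group differed little (chi-square per degree of freedom 1.35 to 1.49), and WT vehicle replicate 2 stood apart from its group. With the replicate block, 10, 9 and 0 members were called, and Ccl4 between the vehicle groups had an adjusted p of 0.0507.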
